A study of Mus musculus with 6 samples.

Results

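Immediate early genes are switched on within minutes of a stimulus, from transcription factors that the cell already holds, so that no new protein has to be made first. Kinases such as ERK activate factors of the SRF, ETS and CREB families at their promoters, and most of their products are short-lived transcription factors or feedback inhibitors. In the kidney they are known to respond to growth factors and to ischaemia.

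The genes described here are Fos, Fosb, Jun, Junb, Egr1, Egr2, Atf3, Ier3, Dusp1 and Nr4a1, and every array probe that carried one of these gene names was taken. They had 13 of the 56470 probes kept on the array, and 10 of the 27454 gene symbols. Of the 10 genes, 9 had a probe bright enough to be tested, with 1 probe each, and these were 9 of 29890 tested probes. Egr2 was too dim, and so were another probe of Fosb and 2 further probes of Junb. The exon or UTR that a probe lies in was not analysed here.

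The micro-array data came from renal cortex of male mice aged 16 weeks, with 3 arrays in each of 2 groups. The labels call the groups db/m and db/db. Db/db mice lack a working leptin receptor on the C57BLKS/J background and become obese and diabetic, and db/m mice are their non-diabetic controls. The study's methods and the design text describe another comparison on these arrays, of db/db mice given Huangqi decoction (HQD), a herbal extract, by gavage for 8 weeks with db/db mice not given it. In the methods, db/m mice and the db/db mice not given HQD received the carboxymethylcellulose vehicle by daily gavage over the same 8 weeks. The groups were therefore kept as labelled db/m and labelled db/db, a positive difference means a higher signal in labelled db/m, and which of the 2 descriptions holds was not settled. The methods state that mice were fasted overnight and anaesthetised with pentobarbital in the morning before the tissue was taken, and the HQD dose of the array mice is not given in the sources used here. The methods give 3 mice per group for the arrays, and p-values measure the spread between them. Fewer cells of a type and less RNA per cell cannot be told apart in such whole tissue.

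Between 51.6% and 59.0% of spots were well above background on the 6 arrays, and the arrays correlated with each other at Pearson r from 0.981 to 0.993 across probes. Markers of the proximal tubule, the main cell type of cortex, were present on all arrays. The arrays lay on 3 slides. Slide 1 held the first labelled db/m replicate with the third of labelled db/db, slide 2 held labelled db/m replicates 2 and 3, and slide 3 held labelled db/db replicates 1 and 2. Slide 1 alone therefore held both groups. Markers of the inner medulla, a region deeper than cortex, differed between arrays. The median of 5 such markers stood 1.22 and 1.45 above its mean on labelled db/m replicates 1 and 3, on the log2 scale, and between 0.42 and 0.83 below it on the other 4 arrays.

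Promoters of the members with the widest spread between arrays, Egr1 aside, are shown because they hold letters that CREB-family factors bind. The sequences are the 250 bases before the annotated start, from RefSeq on GRCm38.p6, for Fos (chr12:85473640-85473889, plus strand), Dusp1 (chr17:26508473-26508722, minus strand) and Nr4a1 (chr15:101266596-101266845, plus strand). Ier3 (chr17:35821463-35821712, plus strand), which held none of the motifs, is set beside them. Each is written 5′ to 3′ on the strand of the gene. Capitals mark matches, on either strand, to the CRE TGACGTCA, its core TGACG, which the full CRE contains, the EGR motif GCGNGGGCG and the TATA motif TATAAA.
Fos: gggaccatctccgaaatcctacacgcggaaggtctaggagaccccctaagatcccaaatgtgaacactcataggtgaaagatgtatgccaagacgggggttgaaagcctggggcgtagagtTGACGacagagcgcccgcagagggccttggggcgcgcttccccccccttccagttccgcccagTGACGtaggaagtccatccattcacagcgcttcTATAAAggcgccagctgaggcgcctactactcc
Dusp1: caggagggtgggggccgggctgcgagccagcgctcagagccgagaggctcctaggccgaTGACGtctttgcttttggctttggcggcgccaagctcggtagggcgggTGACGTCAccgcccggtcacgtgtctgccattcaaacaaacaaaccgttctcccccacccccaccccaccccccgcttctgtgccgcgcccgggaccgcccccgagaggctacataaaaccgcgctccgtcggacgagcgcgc
Nr4a1: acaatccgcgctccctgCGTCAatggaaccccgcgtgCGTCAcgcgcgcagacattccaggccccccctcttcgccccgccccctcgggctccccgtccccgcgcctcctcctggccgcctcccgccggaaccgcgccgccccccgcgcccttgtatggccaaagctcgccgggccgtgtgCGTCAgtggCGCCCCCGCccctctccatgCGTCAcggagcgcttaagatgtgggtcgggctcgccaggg
Ier3: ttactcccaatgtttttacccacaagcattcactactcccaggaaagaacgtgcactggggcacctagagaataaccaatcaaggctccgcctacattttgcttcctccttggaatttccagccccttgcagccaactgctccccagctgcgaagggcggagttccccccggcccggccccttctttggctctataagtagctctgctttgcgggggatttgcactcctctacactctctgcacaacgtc

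The CRE core was found in 6 of the 8 searched members with 1 annotated start, against 17.7% of 32817 mouse promoter windows. Nr4a1 held 4 copies, the largest number among them, and Dusp1 held 3, of which 2 overlapped in the only full CRE of the 8 promoters. The full CRE was present in 1.55% of all windows. Fos held 2 cores, and the core nearest the start lay 62 to 66 bases before it, with a TATAAA 28 to 33 bases before it. The promoters of Fosb, Junb and Atf3 held 1 core each, whereas Jun and Ier3 held none. The EGR motif occurred in Fosb and Nr4a1 and in 4.7% of all windows, and TATAAA in Fos and in 12.4% of them. The AP-1 motif TGANTCA was found in 0 of the 8 promoters and in 6.75% of all windows. The CArG box, which SRF binds, was found in 0 of the 8 and in 1.47% of all windows. Egr2 has 5 annotated starts, and the windows of 4 of them held a CArG box. Some of these windows overlap and share the same box, so that there are fewer boxes than windows. Egr1 was not searched. These matches describe the letters in the window only, and their relation to the spread between arrays was not tested.

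None of the immediate early genes differed between the groups past the test. With limma, 0 of 9 tested members were higher and 0 were lower in labelled db/m at an unadjusted p under 0.05. Of all tested probes, 6.9% were higher and 10.8% were lower. With median centring these shares were 3.02% and 19.3%, and the members' counts were again 0 and 0. After Benjamini-Hochberg adjustment over all tested probes, 0 members passed, and so did 0.0% of all probes. An equal-variance test of each probe alone likewise gave 0 members in either direction, beside 4.28% of all tested probes higher and 11.2% lower. The groups overlapped for all 9 tested members. Of all tested probes, 7.75% were wholly higher in labelled db/m and 16.4% wholly lower. Counts of 0 among only 9 genes do not set the members apart from these shares. In log2 units the differences ran from -0.39 for Dusp1 to 0.32 for Jun, and their median was 0.11 beside -0.03 for all tested probes. Several members lay far apart between arrays of the same group.

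**Figure D1:**
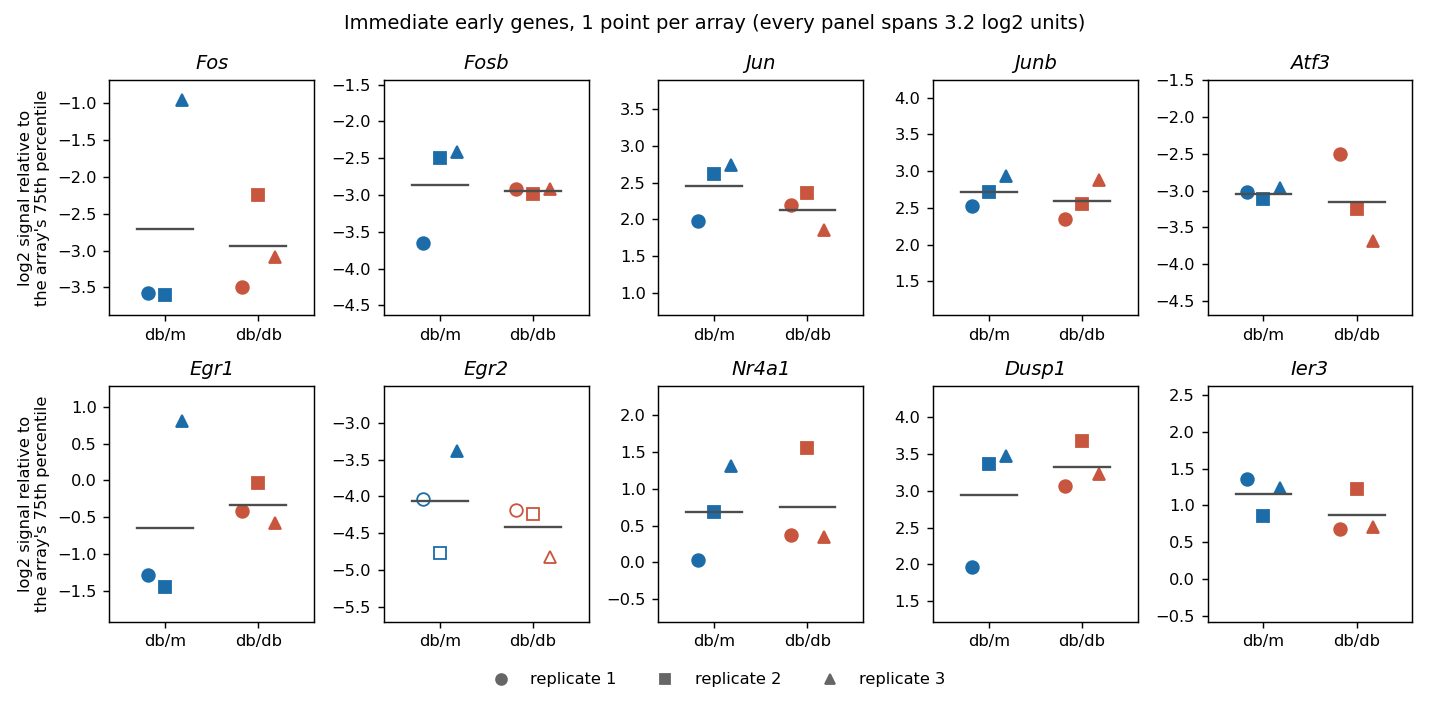
Log2 signal relative to the array's 75th percentile (vertical axis) on each of 6 arrays, by labelled group, with the mean of each group as a line. Symbols give the replicate number, open symbols for Egr2 mark arrays on which it was not well above background, and labelled db/m replicate 3 stands highest for Fos and Egr1.

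Fos encodes the partner that dimerises with JUN proteins to form AP-1. Its probe (chr12:86818118-86818177, mm9, plus strand) read -3.57, -3.61 and -0.95 on labelled db/m replicates 1, 2 and 3, as log2 signal relative to the array's 75th percentile, and -3.50, -2.25 and -3.09 on labelled db/db replicates 1, 2 and 3. Labelled db/m replicate 3 was 2.47-fold above the next array, and the other 2 arrays of its group were the lowest of the 6. The span within labelled db/m was 6.32-fold, and within labelled db/db it was 2.38-fold. The lowest readings were near the lowest signal well above background, which ran from -4.29 to -3.78 over the arrays, and this limits both spans. The difference between groups was 0.24 ± 0.74 (SE, n = 3 per group), with a limma adjusted p = 0.874. Its 95% interval ran from 0.346-fold to 4.01-fold, so that neither a rise nor a fall of 2-fold was outside it. With 1 array left out it ran from -0.65, without labelled db/m replicate 3 (limma adjusted p = 0.629), up to 0.68, without labelled db/m replicate 2. On slide 2 alone, the 2 arrays of labelled db/m were 2.66 apart on the log2 scale.

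Fosb, a close relative of Fos, was measured at chr7:19888168-19888227 (minus strand). It read -3.65, -2.50 and -2.42 on labelled db/m replicates 1, 2 and 3 and -2.92, -2.98 and -2.92 on the labelled db/db arrays. The labelled db/db arrays lay within 1.05-fold of each other, and the labelled db/m arrays on both sides of them within 2.34-fold. The lowest reading, -3.65, was near the lowest signal well above background. The difference was 0.08 ± 0.32 (SE, n = 3 per group; limma adjusted p = 0.901). With 1 array left out it ran from -0.14, without labelled db/m replicate 3, up to 0.48, without labelled db/m replicate 1 (limma unadjusted p under 0.05, adjusted p = 0.329).

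Jun encodes the central DNA-binding partner of AP-1. Its probe (chr4:94716928-94716987, minus strand) read 1.98, 2.62 and 2.74 on the labelled db/m arrays and 2.19, 2.36 and 1.85 on the labelled db/db arrays. Labelled db/m replicates 2 and 3 were above all labelled db/db arrays, and labelled db/m replicate 1 lay among them. The difference of 0.32 ± 0.23 (SE, n = 3 per group) was the highest of the members (limma adjusted p = 0.471). With 1 array left out it ran from 0.17, without labelled db/m replicate 3, up to 0.55, without labelled db/m replicate 1 (limma unadjusted p under 0.05, adjusted p = 0.332). Fosb and Jun were the 2 of 9 members higher in that latter comparison, beside 6.27% of all tested probes.

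Junb, the JUN protein that often restrains the activity of JUN, had the lowest SD between arrays of a group among the tested members. Its probe (chr8:87500843-87500902, minus strand) read 2.53, 2.71 and 2.93 on the labelled db/m arrays and 2.35, 2.56 and 2.88 on the labelled db/db arrays. The 2 groups covered nearly the same range, and the difference was 0.12 ± 0.18 (SE, n = 3 per group; limma adjusted p = 0.706). Its interval, from 0.815-fold to 1.46-fold, was the narrowest of the members. Removal of 1 array gave differences from -0.0, without labelled db/db replicate 1, up to 0.26, without labelled db/db replicate 3.

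Atf3, a stress-induced factor that pairs with JUN proteins, was the member whose labelled db/m arrays lay closest together. Its probe (chr1:192994547-192994606, minus strand) read -3.02, -3.11 and -2.97 on them and -2.50, -3.25 and -3.69 on the labelled db/db arrays. The span was 1.1-fold in labelled db/m and 2.28-fold in labelled db/db, with labelled db/db replicate 1 the highest array and replicate 3 the lowest. That lowest reading, -3.69, was near the lowest signal well above background. The difference was 0.11 ± 0.29 (SE, n = 3 per group; limma adjusted p = 0.845). Leaving out 1 array in turn moved it from -0.16, without labelled db/db replicate 3, up to 0.43, without labelled db/db replicate 1 (limma unadjusted p under 0.05, adjusted p = 0.457), and 5.35% of all tested probes were higher in the latter comparison.

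Egr1 encodes a zinc finger factor that is among the most responsive genes to growth factors. Its probe (chr18:35024395-35024454, plus strand) read -1.28, -1.45 and 0.81 on labelled db/m replicates 1, 2 and 3 and -0.41, -0.04 and -0.58 on the labelled db/db arrays. As for Fos, labelled db/m replicate 3 was the highest array and the other 2 arrays of that group the lowest. The span within labelled db/m was 4.77-fold, and within labelled db/db it was 1.45-fold. The difference was -0.30 ± 0.58 (SE, n = 3 per group; limma adjusted p = 0.785). Without labelled db/m replicate 3 it became -1.02 (limma unadjusted p under 0.05, adjusted p = 0.622), the 1 member lower in that comparison, beside 4.06% of all tested probes. Its sign turned without either other array of that group, to 0.02 without replicate 1 and 0.10 without replicate 2. The 2 labelled db/m arrays of slide 2 were 2.26 apart on the log2 scale.

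Egr2, a zinc finger factor of the same family, was well above background on labelled db/m replicate 3 only, where it read -3.38. Its probe (chr10:67004758-67004817, plus strand) read -4.04 and -4.77 on labelled db/m replicates 1 and 2, and -4.18, -4.24 and -4.83 on the labelled db/db arrays. The readings of those 5 arrays are bounds rather than levels, and Egr2 was not tested.

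Nr4a1 encodes an orphan nuclear receptor. Its probe (chr15:101105071-101105130, plus strand) read 0.04, 0.69 and 1.31 on the labelled db/m arrays and 0.38, 1.55 and 0.35 on the labelled db/db arrays. Labelled db/db replicate 2 was the highest array and labelled db/m replicate 1 the lowest, and the span was similar in both groups, at 2.41-fold and 2.30-fold. The difference was -0.08 ± 0.43 (SE, n = 3 per group; limma adjusted p = 0.928). With 1 array left out its lowest value was -0.39, when labelled db/m replicate 3 was missing, and its highest 0.32, when the array missing was labelled db/db replicate 2.

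Dusp1 encodes a phosphatase that removes phosphate from MAP kinases and so ends the signal. Its probe (chr17:26642624-26642683, minus strand) read 1.96, 3.37 and 3.47 on the labelled db/m arrays and 3.06, 3.68 and 3.23 on the labelled db/db arrays. Labelled db/m replicate 1 was far below the other 5 arrays, and the span was 2.86-fold within labelled db/m and 1.54-fold within labelled db/db. The difference was -0.39 ± 0.41 (SE, n = 3 per group; limma adjusted p = 0.609), and with 1 array left out it ran from -0.66, without labelled db/m replicate 3, up to 0.10, without labelled db/m replicate 1.

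Ier3, which is known to protect cells from apoptosis, had the lowest adjusted p of the members. Its probe (chr17:35959528-35959587, plus strand) read 1.36, 0.86 and 1.24 on the labelled db/m arrays and 0.68, 1.22 and 0.71 on the labelled db/db arrays. Labelled db/m replicates 1 and 3 were the 2 highest arrays, and labelled db/db replicate 2 lay just below them. The difference was 0.28 ± 0.20 (SE, n = 3 per group; limma adjusted p = 0.451). Leaving out 1 array gave 0.18 at the lowest (labelled db/m replicate 1) and 0.46 at the highest, which was without labelled db/db replicate 2 (limma unadjusted p under 0.05, adjusted p = 0.555), and 3.63% of all tested probes were higher in the latter comparison.

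**Figure D2:**
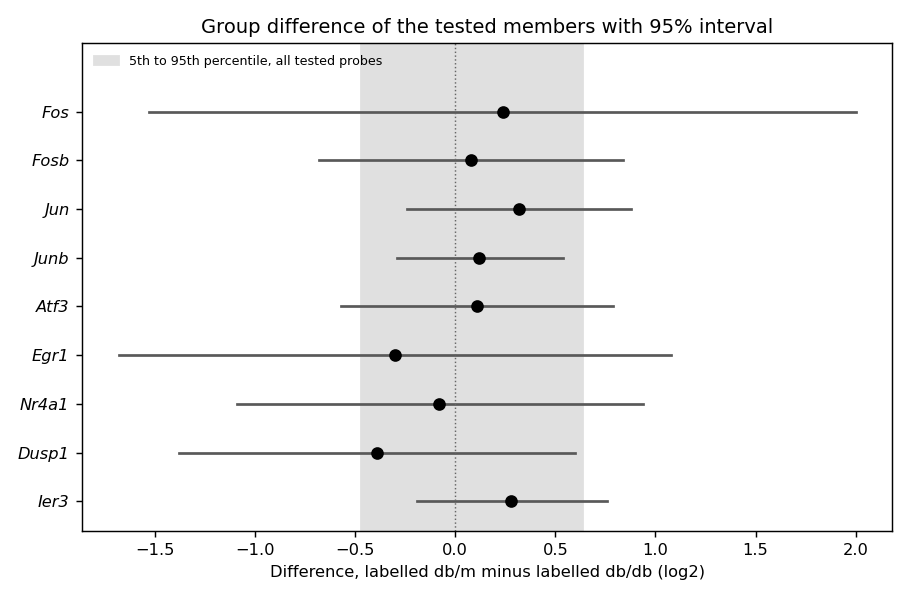
Difference of each tested member, labelled db/m minus labelled db/db, on the log2 scale (horizontal axis), with its 95% interval from limma as a line. The grey band holds the 5th to 95th percentile of the differences of all tested probes, from -0.47 to 0.64, and every interval crosses 0.

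Slide was examined as a batch. With slide as a fixed block the comparison rests on the 2 arrays of slide 1, 1 per group, and it is at the same time the value within that slide. Fosb was then -0.73 (limma unadjusted p under 0.05, adjusted p = 0.483) and Dusp1 -1.28 (limma unadjusted p under 0.05, adjusted p = 0.483), which made 2 of 9 members lower beside 5.16% of all tested probes. The spread in that fit comes only from the pairs of arrays of 1 group on slides 2 and 3, and the difference itself from 1 array against 1. Labelled db/m replicate 1 was the lowest of the 6 arrays for both genes. The median of the members was -0.35 in that comparison.

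The sign of the members' median was not the same under every scaling of the arrays. Of the 9 members, 6 had a positive and 3 a negative difference, and their median of 0.11 became -0.03 with quantile normalization, -0.03 with the deposited matrix and -0.08 with median centring. These shifts were smaller than 0.436, the SD between arrays of a group of the members' median deviation from their means. That SD measures spread between arrays and not the effect of scaling. Median centring moved the median of all tested probes from -0.03 to -0.21, and the members' median relative to it was 0.14 in both cases, whereas with quantile normalization it was -0.01 and with the deposited matrix -0.02. Without labelled db/m replicate 1 all 9 differences were positive, and without labelled db/m replicate 3 the split was 4 positive and 5 negative.

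**Figure D3:**
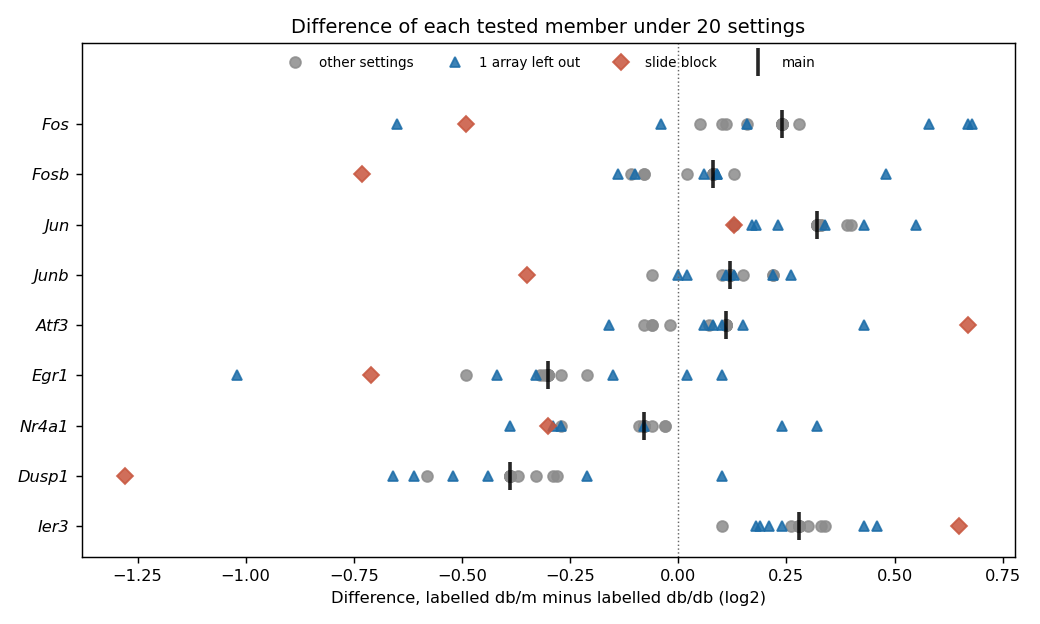
Difference of each tested member, labelled db/m minus labelled db/db, on the log2 scale (horizontal axis), as tested and under 19 alternatives: grey circles for other processing, triangles for 1 array left out, and diamonds for slide as a fixed block. Points lie on both sides of 0 for every member except Jun and Ier3.

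The spread between arrays of the same group was wide for these genes. Its median over the 9 members was 0.49 (SD, log2), and over all tested probes it was 0.19. Fos, with an SD of 1.17, was at the 99.6th percentile of all tested probes, Egr1, at 0.91, at the 98.9th, Nr4a1 at the 96.6th and Dusp1 at the 96.4th. Among probes of like signal these 4 were at percentiles 99.0, 99.4, 98.5 and 99.1. Other lists on the same arrays also had wide spreads, with a median SD of 0.81 for inner medulla markers, 1.17 for the 2 urothelium markers, 0.45 for smooth muscle and mesangium markers and 0.43 for collecting duct markers. Over the other immediate early genes it was 0.28, and Plk3 and Arc, picked after their values were seen, were at the 99.2nd and 98.6th percentile of all tested probes. Junb, with an SD of 0.24, was at the 63.1st percentile of all tested probes and Ier3 at the 72.4th, and among probes of like signal they were at percentiles 84.1 and 83.5. Jun, Fosb and Atf3 were at percentiles 92.6, 82.7 and 72.4 among probes of like signal. For 6 of the 9 members the span was wider within labelled db/m than within labelled db/db, as it was for 49.7% of all tested probes.

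**Figure D4:**
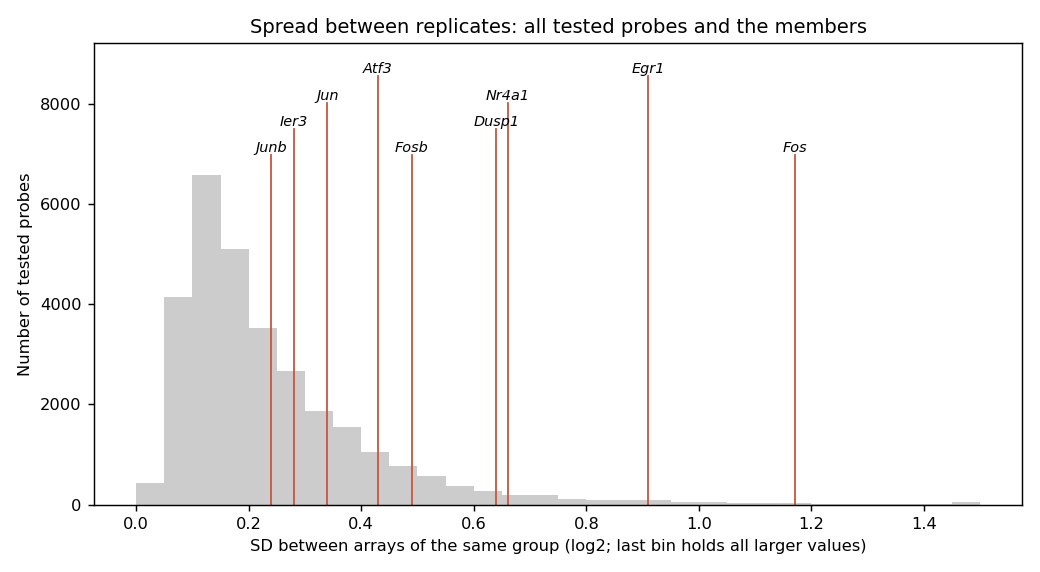
Number of tested probes (vertical axis) by the SD between arrays of the same group, in log2 units (horizontal axis), with each tested member at its own SD. Fos, Egr1, Nr4a1 and Dusp1 stand in the right tail, and Junb and Ier3 stand nearest to the bulk of probes.

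Labelled db/m replicate 3 was the highest array for 5 of the 9 members, Fos, Fosb, Jun, Junb and Egr1, and for 10.1% of all tested probes. Labelled db/m replicate 1 was the lowest array for Fosb, Nr4a1 and Dusp1, and for 21.3% of all tested probes. The median deviation of the members from their means was -0.68 on labelled db/m replicate 1 and 0.45 on labelled db/m replicate 3. The inner medulla markers were high on both of these arrays. Of the members, Ier3 and Atf3 were above their means on both as well, at 0.35 and 0.23 for Ier3 and at 0.07 and 0.12 for Atf3, and the other 7 were below their means on the former and above them on the latter. The 2 tested urothelium markers, Krt5 and Upk1a, had a median deviation of 1.74 on labelled db/m replicate 3 and 0.97 on labelled db/m replicate 1, and the uroplakins Upk1b, Upk2 and Upk3a were too dim to be tested. The 5 markers of vascular smooth muscle and mesangium had a median deviation of -0.78 on labelled db/m replicate 1 and of 0.32 on labelled db/m replicate 3, with labelled db/m replicate 3 the highest array for 4 of 5. Between the groups, the inner medulla markers were higher in labelled db/m by a median of 1.48, and 4 of 5 had an unadjusted p under 0.05. The 8 immune cell markers were higher by a median of 0.53, and 4 had an unadjusted p under 0.05, beside 6.9% of all tested probes. Proximal tubule markers were lowest on labelled db/m replicate 1 for 7 of 8, with a median deviation of -0.44 there, and podocyte markers for 6 of 6, with a median deviation of -0.45. The part of any of these cells in the members' values was not tested.

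**Figure D5:**
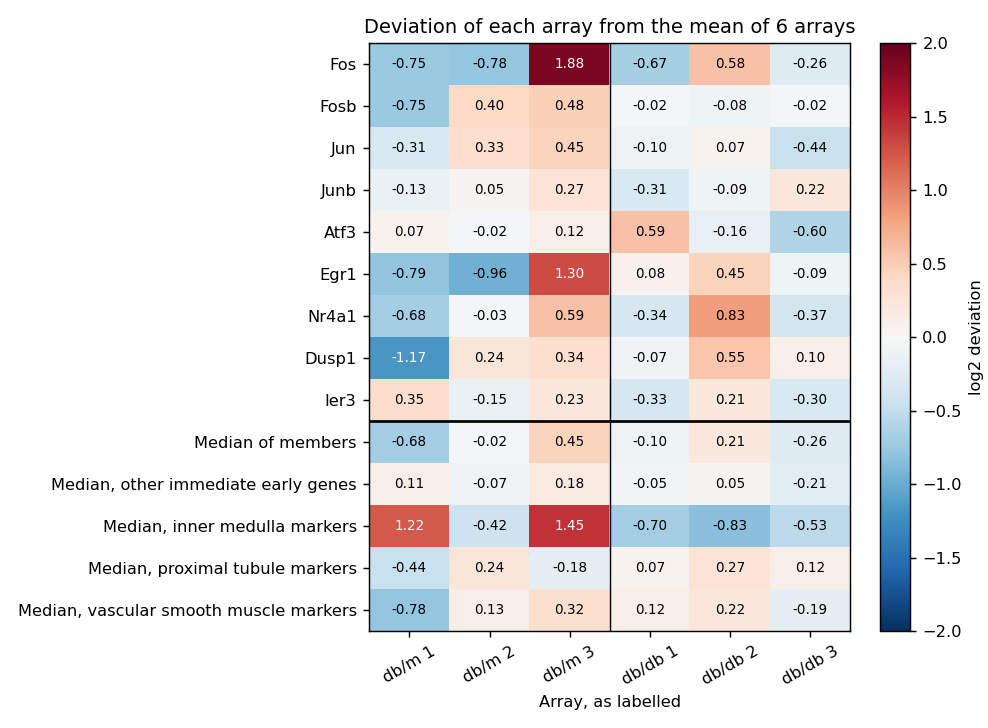
Log2 deviation of each tested member, and of the median of 5 gene lists, from its mean over the 6 arrays (columns, as labelled, with colour and number giving the deviation). Labelled db/m replicate 3 is high for Fos and Egr1, labelled db/m replicate 1 is low for Dusp1, and the inner medulla markers are high on both arrays.

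Of 16451 other genes, those whose centred profile over the 6 arrays lay nearest to the mean profile of the members were Mrm3, Eloa, Svep1, A030005L19Rik and Col3a1. Their root mean square distance ran from 0.085 to 0.138 on the log2 scale, and the median distance over all 16451 genes was 0.40. The members themselves lay 0.238 (Jun) to 0.646 (Fos) from their own mean profile, and a flat line lay 0.352 from it. Jun, Nr4a1, Fosb and Junb were nearer to it than the flat line, and Fos, Egr1, Atf3, Ier3 and Dusp1 were not.

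Of the other immediate early genes, none passed the adjusted test. Of 41 such genes 38 were tested, and 3 were higher and 0 lower by limma at an unadjusted p under 0.05, beside the 6.9% and 10.8% of all tested probes given above. The equal-variance test gave 1 higher and 0 lower, beside 4.28% of all tested probes higher and 11.2% lower. Plk2, a polo-like kinase, was 0.85 ± 0.27 higher (SE, n = 3 per group; limma adjusted p = 0.241). Ppp1r15a, which directs the dephosphorylation of eIF2α in stress, was 0.32 ± 0.12 higher (limma adjusted p = 0.263), and Trib1, a pseudokinase, was 0.37 ± 0.14 higher (limma adjusted p = 0.269). The list had 28 positive and 10 negative differences with a median of 0.21, which was 0.03 with median centring. Relative to the median of all tested probes it was 0.24 with either scaling. Removal of 1 array moved the list median to between 0.10, without labelled db/db replicate 3, and 0.25, without labelled db/db replicate 2. For 14 of the 38 the highest array was labelled db/m replicate 3, beside 10.1% of all tested probes. For 14 of the 38 the lowest array was labelled db/db replicate 3, beside 14.0% of all tested probes. Egr3, Egr4 and Ptgs2 were too dim to be tested. The count of higher genes became 14 of 38 with labelled db/m replicate 2 removed, when 9.51% of all tested probes were higher. It was 1 of 38 with labelled db/m replicate 1 removed, beside 6.27% of all probes, and 1 of 38 with labelled db/m replicate 3 removed, beside 3.64%. The arrays that remain of that group without replicate 2 are those with the high inner medulla markers (median deviations 1.22 and 1.45), and the part of that tissue in the count was not tested.

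The counts of the remaining lists are at an unadjusted p under 0.05, at which 6.9% of all tested probes were higher and 10.8% lower. Among the AP-1 partners outside the members, 1 of 7 tested was higher and 0 lower, namely Maff, a small MAF protein, at 0.52 ± 0.20 (limma adjusted p = 0.266). Of 13 tested phosphatases and inhibitors of ERK signalling 1 was higher and 0 lower, namely Dusp2, at 0.56 ± 0.19 (limma adjusted p = 0.245), and the list median was 0.04. Among the kinases upstream, 0 of 10 were higher and 2 were lower, beside 10.8% of all tested probes. Both encode kinases that phosphorylate ERK. Map2k1 was lower by a log2 difference of -0.41 (limma adjusted p = 0.24) and Map2k2 by -0.37 (limma adjusted p = 0.261). Of 10 upstream transcription factors 1 was higher, Creb1 at 0.28 (limma adjusted p = 0.254), and 1 was lower, Elk4 at -0.31 (limma adjusted p = 0.281). The EGR corepressor Nab2 differed by 0.09 (limma adjusted p = 0.714).

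Of 7 tested AP-1 target genes, 0 were higher and 0 lower at an unadjusted p under 0.05, with a median difference of 0.14. Heat shock genes, which respond to stress through another factor, had 2 of 6 higher, beside 6.9% of all tested probes, and 0 lower, namely Hsph1 at 0.50 (limma adjusted p = 0.24) and Hspb1 at 0.88 (limma adjusted p = 0.263), with a list median of 0.51. Their median deviation was 0.58 on labelled db/m replicate 1 and 0.48 on labelled db/m replicate 3, the arrays with high inner medulla markers. None of the genes in these lists passed an adjusted p under 0.05.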

How the data were processed

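Renal cortex RNA was hybridised to one-colour Agilent arrays (Cy3), 3 arrays per labelled group. For every array, a scanner file deposited by the authors gives the background-corrected intensity of each spot, from Feature Extraction 10.7.1.1, named in the submitters' processing notes, with no scaling across arrays. A deposited matrix holds the authors' log2 values, with a median of 6.11 in every column, which correlated with the log2 intensity of each array at r from 0.9983 to 1 and served as an alternative. Its column medians are equal, and its normalization is not given in the sources used here. Gene names and coordinates (mm9) were those of the scanner files, and 71 names that differed in the file of labelled db/m replicate 1 were taken from the others. Symbols came from RefSeq by accession for 32903 of 56470 probes, and otherwise from the files.

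The software was R 4.3.3 and limma 3.58.1. Control spots were removed, as were 135 probes with an outlier flag, and repeated spots (300 probes) were averaged. Values were taken as log2 intensity less the 75th percentile of the array, and saturation affected 0 probes. Testing required a probe to be well above background throughout 1 group or both, and was done with lmFit and eBayes and Benjamini-Hochberg adjustment over all tested probes. For the other lists, the brightest tested probe stood for a gene. The number of arrays limits the precision. An exact two-sided permutation test of 3 against 3 arrays cannot go below p = 0.1, and none was used. The procedure was tested on simulated data.

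Every member was named. From the other lists, genes with an unadjusted p under 0.05 were named, at most 6 per list, and for the members' mean profile the 5 nearest genes. Genes named as untested, and Nab2 as the only tested EGR corepressor, were added after their values were seen. The members and lists were chosen with earlier results of these data known. Median centring, quantile normalization, the deposited matrix and normexp correction (offset 50) were tried as alternatives, with 2 other filters on dim probes, dim arrays set to the floor, the mean of all tested probes of a gene, eBayes with trend and robust variance, an equal-variance test of each probe alone (the methods name ANOVA in general and no test for the arrays), slide and replicate number as blocks, and each array left out in turn. Slide as a random block was chosen after seeing the data.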

Additional observations from a re-analysis of the deposited data

How the results depend on the processing

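No member had an adjusted p under 0.05 in any alternative that was run. As tested, 0.0% of all probes passed that adjustment, so its outcome says little about the members in particular. The count of members with an unadjusted p under 0.05 was 0 in both directions with every processing alternative except slide as a fixed block, which gave 2 lower members, Dusp1 at -1.28 and Fosb at -0.73, the latter opposite in sign to 0.08, and a median of -0.35. That block leaves 1 array per group in the comparison. With 1 array left out, between 0 and 2 members were higher and between 0 and 1 lower, and the members' median ran from -0.14 to 0.22. The count of other immediate early genes that were higher, 3 as tested, was 5 with quantile normalization, 5 with normexp, 5 with the deposited matrix, 6 with the slide block, and 1 each with median centring, no filter on dim probes and the equal-variance test. It ran from 1 to 14 with 1 array left out, while the share of all tested probes that were higher ran from 3.63% to 11.2%. Over the other alternatives that share ran from 3.02% with median centring to 8.35% with replicate number as a block. The share that were lower ran from 4.06% to 13.7% with 1 array left out and from 4.27% with no filter to 19.3% with median centring otherwise. The count of lower ones, 0 as tested, was 1 with median centring, with trend and robust variance, with the slide block and with the mean of all tested probes, and ran from 0 to 1 with 1 array left out. The cause of these changes was not tested. With replicate number as a block, 0 members were higher, 0 lower, the members' median was 0.11 and 4 other immediate early genes were higher. Deviations of arrays with the same number correlated at 0.35, 0.15 and 0.05, so that the number was not taken to pair the samples. The consensus correlation within slides was -0.104, and with slide as a random block the median was 0.13. Signal limited Fos, Fosb and Atf3, whose lowest readings, -3.61, -3.65 and -3.69, were near the lowest signal well above background, which ran from -4.29 to -3.78 over the arrays.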
